A study of Mus musculus with 4 samples.

Results

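The clustered histone genes encode the linker histone H1 and the core histones H2A, H2B, H3 and H4 whose synthesis is tied to DNA replication. They were taken as all genes whose symbol starts with Hist1, Hist2, Hist3 or Hist4 and that had at least 20 unique molecular identifiers (UMIs, counted cDNA molecules) over the 4 count matrices of the series. Of 69 such genes listed, 63 passed, out of 28692 genes in all. The genes just below the minimum were Hist2h2aa2 with 9 UMIs and Hist1h1t with 4, and those just above it were Hist1h2ah with 57 and a second gene listed as Hist2h2bb with 74. By class, the members were 5 H1, 17 H2A, 16 H2B, 12 H3 and 13 H4 genes.

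The data are droplet 3′ single-cell RNA counts from B16F10 melanoma tumours of C57BL/6 mice. Pmel-1 CD8+ T cells, whose T cell receptor recognises the melanoma antigen gp100, were transduced with IRF4-GFP or with a GFP control and transferred on day 3 after tumour implantation. On day 14 the transferred cells and the host's own CD45+ cells were sorted from each arm, which gave 1 library each of transferred IRF4, transferred control, endogenous IRF4 and endogenous control cells. For the endogenous cells the arm is the treatment their host received. Values for the 4 libraries are given below in that order. IRF4 is a transcription factor that T cells raise when their antigen receptor is triggered. The labels do not say how many mice were pooled in a library, the level of expression from the vector, or which promoter drove it.

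With 1 library per group nothing could be tested between groups, and every interval below covers counting error only. Cells of 1 library share their animals and their preparation and are not replicates. The libraries held 715, 3640, 6981 and 6375 barcodes with 16664323, 94686409, 81843816 and 84211837 UMIs, and 28 barcodes recurred between libraries, 18 of them between the endogenous pair. Of all barcodes, 572, 2513, 6371 and 5676 barcodes had at least 1000 UMIs, 500 genes and no more than 10% of UMIs from mitochondrial genes and were kept as cells. CD8 T cells were gated by at least 2 UMIs of Cd3d, Cd3e or Cd3g, at least 2 of Cd8a or Cd8b1 and none of Cd4, with limits on B cell and myeloid transcripts. The gate held 474, 2020, 1998 and 697 cells, which were 82.9%, 80.4%, 31.4% and 12.3% of those kept. The endogenous libraries were sorted on CD45, which other leukocytes carry too. Counts are 3′ tags, 1 per molecule, so levels were not divided by transcript length. The Irf4 transcript did not set the labelled arms apart: it reached 28.0 and 26.1 CPM (UMIs per 1000000 UMIs of the same cells) in transferred CD8 T-gate cells, a ratio of 1.07 with an interval of 0.953 to 1.20. It reached 10.5 and 10.3 CPM in the endogenous ones. Whether a vector transcript would be counted by these 3′ tags was not tested, so IRF4 and control below are the arms as labelled.

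Clustered histone genes lie side by side in gene clusters, have no introns in their classical form, and are transcribed together when cells copy their DNA. Their messenger RNAs classically end in a conserved stem-loop, bound by the stem-loop binding protein (Slbp), in place of a poly(A) tail. A 3′ library primed on poly(A) need not capture transcripts without a tail in proportion to their amount, so levels here may differ from levels of total histone mRNA. Whether the counted UMIs came from tailed transcripts or from priming at A-rich stretches was not tested. Activated CD8 T cells divide quickly, so histone mRNA is one readout of their cycling.

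On the mm10 assembly, 47 of the Hist1 members lie between positions 21715763 and 23764406 of chromosome 13, as chr13:21715763-23764406, in the GENCODE vM21 annotation. Hist1h2al, annotated as a processed pseudogene, lies apart at chr13:51202727-51203065. The 10 Hist2 members lie at chr3:96219865-96279001, the 2 Hist3 members at chr11:58948920-58956830 and Hist4h4 at chr6:136801553-136804415. The annotation matched 61 of 63 members by gene identifier. Hist1h2bm and Hist1h2bh were matched by none and were used for levels only.

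The 3′ stem-loop is shown because it ends the classical transcript and because the annotated members differ in what lies beyond it. It was searched as 16 bases: a stem of 6 pairs that opens with GG, around a loop of 4 bases with T in the first and the third place. It was found past the coding part of the first annotated transcript, by name, of 42 of 61 members and in 78 of 58797 protein-coding mouse transcripts (0.133%). The most frequent form was shared by 23 members of H1, H2A, H2B and H3, and another by 7 H4 members. In the sense strand as DNA, 5′ to 3′, with the stem-loop in capitals and up to 5 bases before and 7 after it in lower case, the forms of 7 members were as follows.
Hist1h1c: caaaaGGCTCTTTTCAGAGCCaccactc
Hist1h2ap: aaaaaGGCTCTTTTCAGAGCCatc
Hist3h2a: ccaaaGGCTCTTTTCAGAGCCacccaca
Hist2h2ac: aaaaaGGCTCTTTTTAGAGCCaccaaat
Hist1h3c: aaaaaGGCTCTTTTAAGAGCCacctaag
Hist1h4d: ccaaaGGCCCTTTTCAGGGCCactacct
Hist1h4i: ttaaaGGCCCTTTTTAGGGCCaccacaa

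The H1, H2A and H3 members shown share 1 stem, and Hist1h3c and Hist2h2ac differ from the others in the last base of the loop. The H4 members differ in the stem itself, and Hist1h4i also in the loop. The annotated transcript of Hist1h2ap stops 3 bases after the stem-loop. In contrast, the annotated transcripts of Hist1h4i, Hist1h4d, Hist1h1c and Hist3h2a run on for 330, 770, 840 and 1643 bases. In all, 21 members ended within 100 bases of the stem-loop, 21 extended further, 13 were annotated up to at most 2 bases past the stop codon, and 6 had no stem-loop in the annotated transcript.

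The promoters of the members, which hold the letters that the known histone subtype elements are built on, are shown for 3 genes whose levels are described below. RefSeq promoter sequences (build GRCm38.p6, windows of 300 bases that begin upstream of the annotated start and end shortly after it) were matched to 54 of 63 members through synonyms. Both strands were searched for the CCAAT box (CCAAT), the TATA box (TATAAA), the octamer of H2B promoters (ATTTGCAT) and the AC box of H1 promoters (AAACACA), and matches of the 4 are in capitals below.
Hist1h1b, chr13:21780576-21780875, minus strand: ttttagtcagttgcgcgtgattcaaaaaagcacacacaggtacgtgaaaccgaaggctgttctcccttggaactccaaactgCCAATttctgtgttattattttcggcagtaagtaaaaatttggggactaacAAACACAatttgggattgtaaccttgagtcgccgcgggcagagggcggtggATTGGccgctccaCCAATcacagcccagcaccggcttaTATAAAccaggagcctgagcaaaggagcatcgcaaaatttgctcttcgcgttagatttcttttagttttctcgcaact
Hist1h2ae, chr13:23571171-23571470, minus strand: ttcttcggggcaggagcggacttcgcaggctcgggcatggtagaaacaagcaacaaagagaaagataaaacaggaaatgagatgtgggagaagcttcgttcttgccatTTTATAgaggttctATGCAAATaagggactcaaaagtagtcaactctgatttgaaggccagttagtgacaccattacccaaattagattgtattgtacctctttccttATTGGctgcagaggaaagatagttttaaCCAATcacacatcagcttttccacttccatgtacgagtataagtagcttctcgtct
Hist1h4d, chr13:23581318-23581617, plus strand: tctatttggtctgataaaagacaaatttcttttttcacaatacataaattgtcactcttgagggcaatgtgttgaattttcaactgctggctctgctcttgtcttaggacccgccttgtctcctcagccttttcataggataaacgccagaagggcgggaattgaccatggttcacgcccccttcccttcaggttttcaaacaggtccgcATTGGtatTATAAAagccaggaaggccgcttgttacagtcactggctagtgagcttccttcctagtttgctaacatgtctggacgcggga

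The letters CCAAT occurred in 45 of 54 members (83.3%), against 37.9% of all 27025 promoters of the same length. They were in all 42 promoters of H1, H2A, H2B and H3 and in 3 of 12 H4 promoters. TATAAA was in 33 members (61.1%), against 14.2% of all promoters. The octamer was in 10 members, 6 of 15 H2A and 4 of 12 H2B, and in none of the others, against 1.75% of all promoters. AAACACA was in 4 of 5 H1 promoters, against 7.14% of all. The letters GGTCC, part of the proximal element known from human H4 promoters, were in 11 of 12 H4 promoters and in 45.4% of all. Windows of divergent H2A and H2B pairs such as Hist1h2ae and Hist1h2bg overlap, so these promoters are not independent of each other. A match counted for an H2A gene can thus belong to the H2B gene beside it, and the reverse. In the Hist1h2ae window shown, the TATAAA and octamer matches read on the opposite strand, which is that of Hist1h2bg. They are not certain to be elements of Hist1h2ae. These are matches of letters, and no binding was measured.

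Cycling CD8 T cells had 5.33 to 10.9 times the histone level of non-cycling ones in the 4 libraries, and H1 and H2A genes held most of it. Cycling was called from at least 5 UMIs of at least 3 genes out of Mki67, Top2a, Birc5, Cdk1, Ccnb2, Ccna2, Nusap1, Rrm2, Pclaf and Tyms, non-cycling from none, and no histone gene was used. The cycling cells numbered 194, 722, 809 and 161 (40.9%, 35.7%, 40.5% and 23.1% of the gate) and the non-cycling cells 112, 541, 625 and 318. The summed level of the 63 genes in cycling cells was 2845 CPM (interval 2811 to 2879), 1414 (1402 to 1425), 3014 (2992 to 3036) and 2808 (2764 to 2853). In non-cycling cells it was 341, 265, 276 and 317 CPM. The transferred control library thus had the lowest cycling level, and the non-cycling levels were close together. Cycling over non-cycling ratios were 8.33 (7.52 to 9.26), 5.33 (5.07 to 5.61), 10.9 (10.3 to 11.5) and 8.85 (8.25 to 9.51). Cells with 1 or a few cycling UMIs, called intermediate, stood at 335, 232, 306 and 380 CPM, next to the non-cycling cells. Median depth moved with the gate: cycling cells had 40689.5, 45829.5, 25161 and 28854 UMIs and non-cycling cells 8155, 8348, 6570 and 7212.5. With the gate set on cells thinned to 2000 UMIs the cycling levels were 3201, 1911, 3209 and 3272 CPM and the non-cycling ones 338, 305, 301 and 353.

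**Figure D1:**
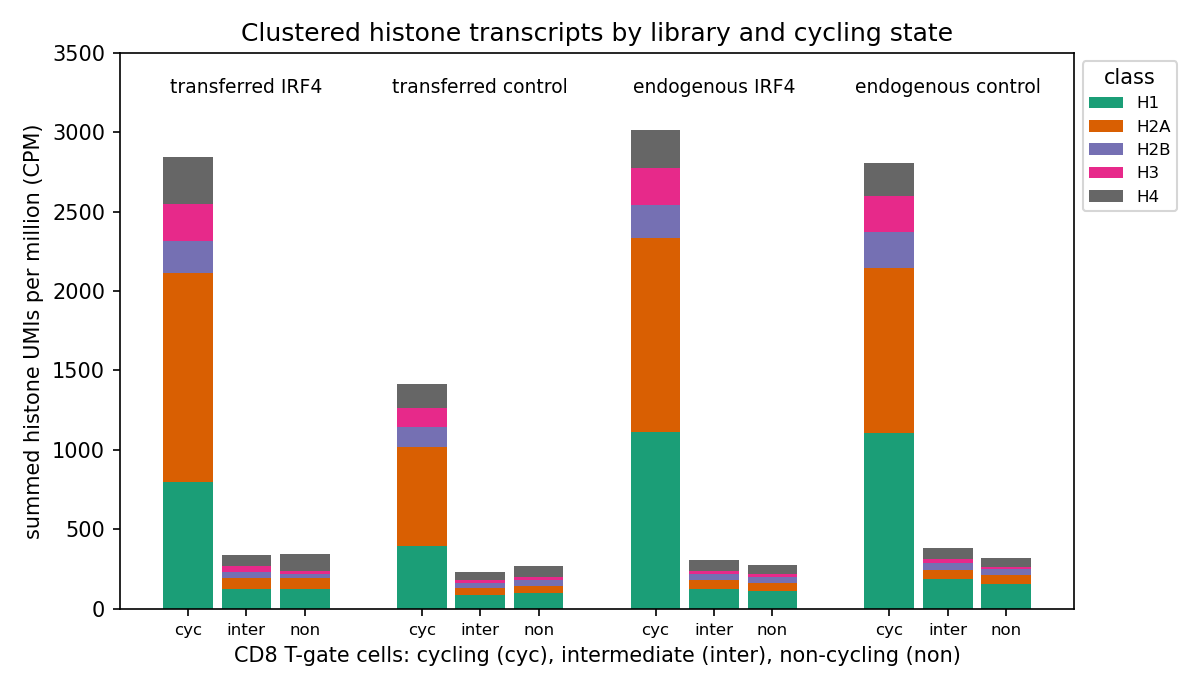
Summed CPM of the 63 histone genes, stacked by class, in cycling, intermediate and non-cycling CD8 T-gate cells of each of the 4 libraries. The cycling bars reach 2845, 1414, 3014 and 2808 CPM and the other bars stay between 232 and 380.

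Within the cycling gate the level was uneven from cell to cell. The median cycling cell had 1284, 676, 1181 and 1104 histone CPM, and the cell at the 90th percentile 7193, 3704, 8267 and 6780. The tenth of cells with the least lay at or below 351, 198, 255 and 225 CPM. As few as 31 of 194, 110 of 722, 139 of 809 and 25 of 161 cells held 50% of the histone UMIs of their gate. Nearly every cycling cell had at least 1 histone UMI, and 0%, 0.831%, 0.124% and 0.621% had none.

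The call by gene was made where the level reached 10 CPM in either kind of cell and the ratio, on the log2(CPM + 1) scale, reached 1.5-fold. Of the 63 members, 34, 24, 33 and 33 reached 10 CPM, and 32, 22, 31 and 31 of those were higher in cycling cells. The share of all measured genes called higher in the same comparison was 22.8%, 11.2%, 24.6% and 28.3%. Lower in cycling cells were 1, 0, 1 and 1 members, against 16.8%, 7.85%, 17.5% and 14.6% of all genes. Members that pass the minimum only through their cycling level had to differ, so the whole list is also given: 60, 58, 60 and 60 of all 63 had a positive log2 ratio. The median log2 ratio over all 63 was 1.89, 1.32, 2.03 and 2.04, beside 0.07, 0.02, 0.09 and 0.19 over all measured genes. The higher call held in all 4 libraries for 22 members, where 24 were measured in all 4. It held in any library for 34, where 36 were measured in any. The same overlap was not counted over all genes, so the shares by library above are the only background.

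The linker histones, which bind the DNA between nucleosomes, ranged widely among themselves. Hist1h1b rose from 3.73, 2.74, 7.70 and 8.89 CPM in non-cycling to 390, 163, 642 and 547 CPM in cycling cells. Its ratios were 104 (40.8 to 384), 59.6 (36.6 to 104), 83.3 (60.2 to 119) and 61.6 (41.0 to 97.3). On the log2(CPM + 1) scale its value of 5.46 was the highest of the measured members in the transferred control library. By plain ratio Hist1h2ag, 76.9 on 1 non-cycling UMI, and Hist1h3c, 73.8 on 3, were higher there. Hist1h1e, an H1 gene with a high level outside division too, went from 66.2, 45.4, 40.9 and 56.4 to 270, 148, 277 and 322 CPM, ratios of 4.08, 3.25, 6.77 and 5.70. Hist1h1c, an H1 gene known for expression in non-dividing cells, moved least: 45.7, 34.4, 46.2 and 72.6 CPM in non-cycling and 67.6, 43.8, 94.2 and 137 CPM in cycling cells. Its ratio was 1.48 (1.10 to 2.02) and 1.27 (1.10 to 1.48) in the transferred libraries, below the 1.5-fold call, and 2.04 and 1.88 in the endogenous ones. Hist1h1d had ratios of 17.3 (5.88 to 84.1), 2.29, 6.18 and 6.58, and only 3 UMIs in non-cycling transferred IRF4 cells stand behind the first. Hist1h1a had ratios of 5.73, 6.93, 12.4 and 8.56. Together the H1 genes stood at 797, 394, 1110 and 1109 CPM in cycling cells.

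The H2A genes, whose products form dimers with H2B in the nucleosome, held the largest level of any class in transferred cycling cells, 1316 and 622 CPM. In endogenous cycling cells they held 1223 and 1037 CPM. Hist1h2ap was the most counted member of the series. It went from 15.9, 10.3, 9.20 and 10.0 CPM in non-cycling to 657, 304, 453 and 409 CPM in cycling cells, ratios of 41.4, 29.6, 49.2 and 40.7. Hist1h2ae followed with 369, 182, 466 and 353 CPM in cycling cells and ratios of 30.4, 15.9, 44.5 and 39.7. Hist1h2an reached 104, 37.8, 104 and 69.2 CPM in cycling cells from 0.933, 1.88, 2.35 and 1.16. Hist2h2ac, of the smaller cluster on chromosome 3, had lower ratios of 4.38, 4.24, 8.70 and 3.64. The coding parts of H2A genes are nearly alike: 92.4% of the 90-base windows of the Hist1h2ap transcript and 83.9% of those of Hist1h2an also occur in other genes. How the authors' counting split such reads between copies cannot be told from the counts, and 57 members share at least 1 window, 25 of them over 50% of their windows.

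The H2B genes stood at 202, 130, 207 and 224 CPM in cycling cells and the H3 genes at 233, 121, 234.1 and 227. Hist1h2bj led H2B with 52.4, 35.0, 42.7 and 43.2 CPM. Hist1h2be, at 22.5, 13.5, 24.8 and 30.5 CPM, had ratios of 3.01, 2.13, 4.14 and 3.76, and its annotated exons overlap those of Hist1h1e on the same strand. Hist1h3c, an H3 gene, had 0, 3, 6 and 0 UMIs in the non-cycling and 809, 1581, 2448 and 506 in the cycling cells. It was at least 31.2-fold and at least 81.2-fold higher in cycling cells of the 2 libraries with no UMI, taking 3 counts per library as the floor. In the other two its ratio was 73.8 (25.2 to 358) and 77.3 (35.5 to 211).

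The H4 genes depended least on cycling among the core histones. Their sum was 107, 66.6, 60.8 and 58.0 CPM in non-cycling and 296, 147, 239 and 211 CPM in cycling cells, ratios of 2.76 (2.29 to 3.36), 2.21 (1.995 to 2.46), 3.93 (3.49 to 4.45) and 3.64 (3.07 to 4.34). The H2A sum had ratios of 19.3, 12.6, 23.1 and 17.8 and the H3 sum 13.9, 5.70, 12.4 and 18.9. Within H4, Hist1h4d had ratios of 4.18, 4.05, 8.13 and 5.95 and Hist1h4i 2.17, 2.13, 3.37 and 3.39. Hist1h4h had 3.13, 1.98, 4.78 and 4.85, and Hist1h4c 1.80, 1.37, 3.92 and 3.42.

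The member that went the other way was Hist3h2a, an H2A gene of the small chromosome 11 cluster, which was named, like Hist3h2ba, Hist1h2bj and Hist1h2ab, after its values were seen. It stood at 12.1, 9.24, 16.9 and 13.9 CPM in non-cycling and 4.53, 6.62, 6.73 and 8.19 CPM in cycling cells. Every library had it lower in cycling cells, with ratios of 0.374 (0.197 to 0.759), 0.716 (0.533 to 0.977), 0.398 (0.303 to 0.527) and 0.589 (0.370 to 0.941). Its neighbour Hist3h2ba had 4.66, 8.22, 11.3 and 11.2 CPM in non-cycling and 7.77, 6.59, 15.6 and 8.19 CPM in cycling cells, with no common direction. The Hist1 cluster as a whole had ratios of 9.46, 6.06, 13.2 and 10.5, the Hist2 cluster 3.32, 2.56, 4.86 and 3.50. Annotated exons of Hist3h2a and of Trim17 overlap on the same strand, so its reads are not certain to be its own.

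**Figure D2:**
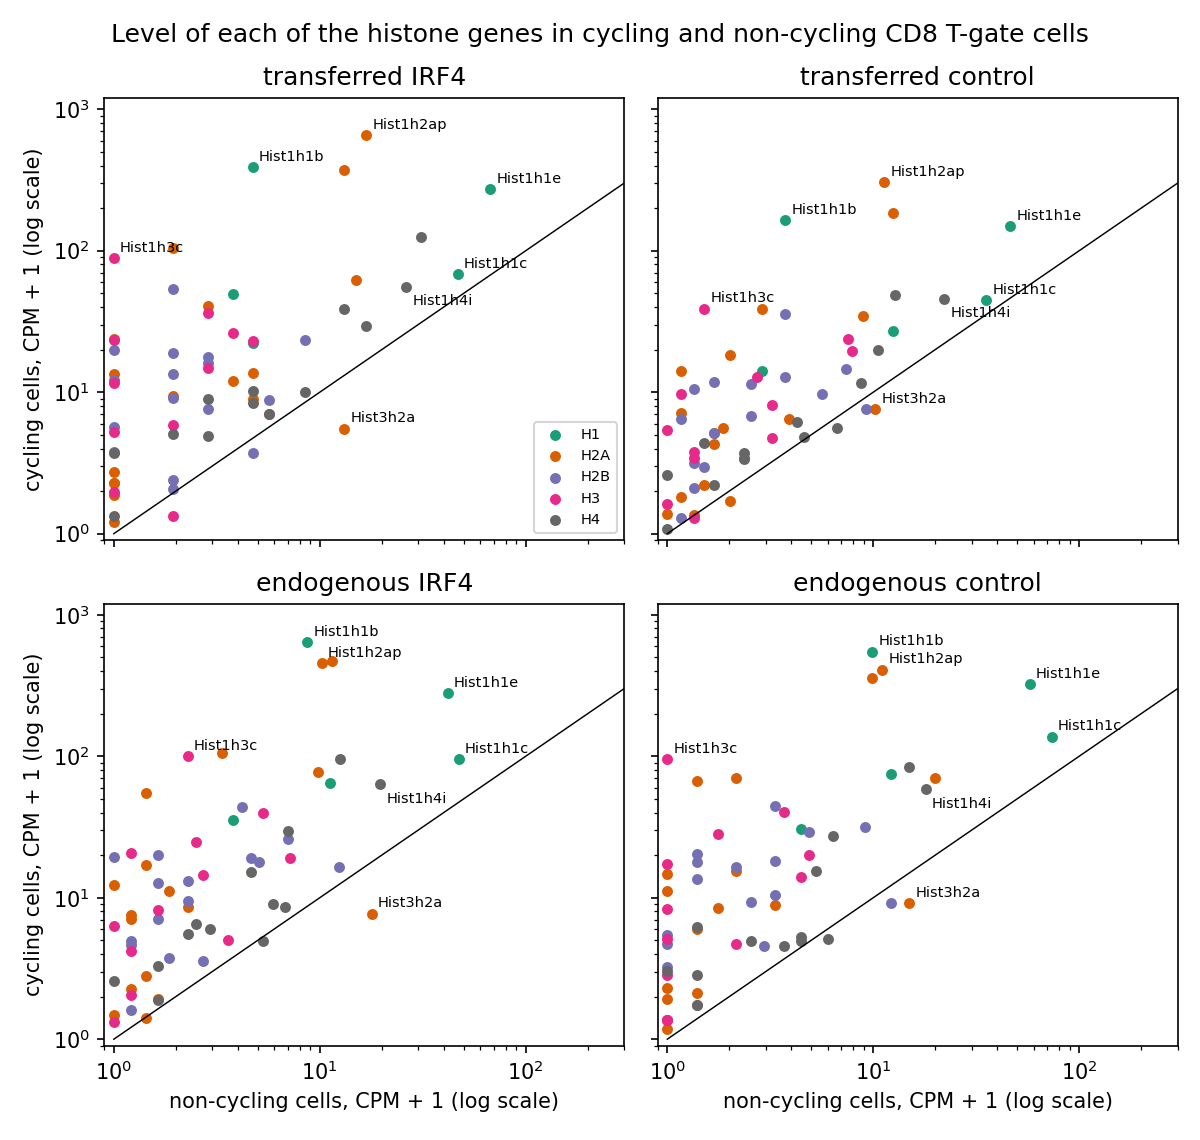
Level of each of the 63 histone genes in non-cycling (x axis, CPM + 1, log scale) and cycling CD8 T-gate cells (y axis, CPM + 1, log scale), 1 panel per library, coloured by class, with the line of equality. Hist1h1b and Hist1h2ap stand far above the line, Hist1h1c close to it and Hist3h2a below it in all 4 panels.

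The share of cells with a UMI showed the same contrast at equal depth. With each cell thinned to 2000 UMIs, Hist1h1b was seen in 61 of 194, 144 of 720, 348 of 809 and 59 of 161 cycling cells, with intervals of 24.98% to 38.5%, 17.1% to 23.1%, 39.6% to 46.5% and 29.2% to 44.6%. It was seen in 0.893%, 0.370%, 1.92% and 1.26% of non-cycling cells, the background here, and in 5.63% of the non-cycling B cells and 1.26% of the natural killer (NK) cells of the endogenous control library. Without thinning the cycling shares were 73.2%, 66.9%, 73.9% and 67.1%, and the non-cycling ones 3.57%, 2.77%, 5.04% and 4.09%. Hist1h1c was seen in 13.9%, 10.1%, 15.2% and 21.7% of thinned cycling cells and in 8.93%, 5.73%, 8.32% and 9.12% of non-cycling ones. Thinning left out 2 cycling cells of the transferred control library and 1 of the NK cells.

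Members whose annotated transcript runs on past the stem-loop made up most of the histone UMIs of non-cycling cells. The 21 members that extend more than 100 bases past it held 71.9%, 70.6%, 71.7% and 74.8% of histone UMIs in non-cycling cells and 38.5%, 41.6%, 40.5% and 42.1% in cycling cells. Their summed cycling over non-cycling ratios were 4.46, 3.14, 6.16 and 4.98. The 21 members that end near the stem-loop had ratios of 17.0, 9.96, 18.6 and 16.2. The 13 members annotated only to the stop codon, Hist1h1b and Hist1h2an among them, had ratios of 39.2, 16.9, 43.9 and 43.1, and the 6 with no stem-loop found 3.22, 3.62, 5.30 and 6.12. Per member the groups lay closer together. The median log2 ratio of all members was 2.48, 1.31, 2.08 and 2.09 for those that end near the stem-loop and 1.09, 1.06, 1.72 and 1.66 for those that extend past it. It was 2.28, 1.38, 2.55 and 2.46 for those annotated to the stop codon and 0.30, 0.54, 0.45 and 0.88 where no stem-loop was found. The sums are dominated by a few genes: 4 members, Hist1h2ap, Hist1h1b, Hist1h2ae and Hist1h1e, held 59.3%, 56.4%, 61.0% and 58.1% of histone UMIs in cycling cells. In non-cycling cells the 4 most counted members of each library held 48.9%, 42.5%, 44.4% and 52.0%. Hist1h1e and Hist1h1c, which both extend past the stem-loop, led them in every library. The annotation need not match the one behind the counts, and 3′ tags are not divided by length.

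Compared between the arms, cycling transferred cells labelled IRF4 had 2845 histone CPM against 1414 in the control, a ratio of 2.01 (1.98 to 2.04). Of the members that reached 10 CPM, 27 of 33 were at least 1.5-fold higher and 0 lower, where 3.05% of all measured genes were higher and 3.74% lower. In the IRF4 arm 33 members reached 10 CPM and in the control arm 24. The others were measured only through the arm where they were higher, so the whole list is given too. Of all 63 members, 61 had a positive log2 ratio, with a median of 0.71 beside 0.02 over all genes. In the same comparison of endogenous cycling cells the levels were 3014 and 2808 CPM, a ratio of 1.07 (1.05 to 1.09). There 1 of 32 members was higher, Hist3h2ba, and 1 lower, Hist1h2bc, against 2.09% and 7.40% of all genes, and the median over all 63 members was 0.04. With a pseudocount of 10 CPM, 14 members were called higher in transferred cycling cells and 0 in endogenous ones. Each arm is 1 library, and neither the arm difference nor its difference between transferred and endogenous cells was tested. The low library was the transferred control: its cycling level was 0.503 (0.495 to 0.513) of that of the endogenous control, while the transferred IRF4 library stood at 0.944 (0.931 to 0.957) of the endogenous IRF4 one.

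Each class was 1.56-fold to 2.12-fold higher in transferred IRF4 cycling cells. The IRF4 over control ratio was 2.03 (1.97 to 2.08) for H1, 2.12 (2.07 to 2.16) for H2A, 1.56 (1.48 to 1.64) for H2B, 1.92 (1.83 to 2.02) for H3 and 2.01 (1.92 to 2.11) for H4. In endogenous cycling cells the same ratios were 1.001 (0.973 to 1.03), 1.18 (1.15 to 1.21), 0.924 (0.868 to 0.985), 1.03 (0.971 to 1.10) and 1.13 (1.06 to 1.21). H2B was the class with the smallest ratio in both.

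Single members ranged around those values. The highest ratios among measured members in transferred cycling cells were those of Hist1h2ai, 11.01 against 3.28 CPM or 3.35 (2.57 to 4.36), and Hist1h2an, 104 against 37.8 CPM or 2.75 (2.54 to 2.98). Hist1h4c followed with 28.5 against 10.5 CPM, Hist1h4d with 125 against 47.9 CPM and Hist1h3b with 22.3 against 8.63 CPM. Hist1h2ai and Hist1h3b were under 10 CPM in the control and so were measured through the IRF4 arm. The most counted genes lay between: Hist1h1b had a ratio of 2.39 (2.29 to 2.49), Hist1h2ap 2.16 (2.09 to 2.23), Hist1h2ae 2.02 (1.94 to 2.11) and Hist1h1e 1.83 (1.75 to 1.92). The lowest ratios were 1.22 (1.10 to 1.34) for Hist1h4i, 1.37 (1.18 to 1.59) for Hist1h3a, 1.42 (1.14 to 1.75) for the protein-coding gene listed as Hist2h2bb, 1.41 (1.17 to 1.69) for Hist1h2bc and 1.44 (1.18 to 1.74) for Hist1h2bb, none of which reached the call. Hist1h1c had 67.6 against 43.8 CPM in transferred cells, 1.54-fold, and 94.2 against 137 CPM in endogenous cells, 0.688-fold. Of all 63 members, 55 had the larger log2 ratio in transferred cells. The same count was not made over all genes, whose median log2 ratio was 0.022 in transferred and -0.0045 in endogenous cycling cells. Among the 30 members measured in both comparisons the transferred minus endogenous difference ran from 0.16 for Hist1h4i to 1.44 for Hist1h2ab. Of these 30, 6 had under 10 CPM in transferred control cells and so were measured there through the IRF4 arm, Hist1h2af with 12.4 against 6.11 CPM among them, and the direction among the 30 is given as a description.

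**Figure D3:**
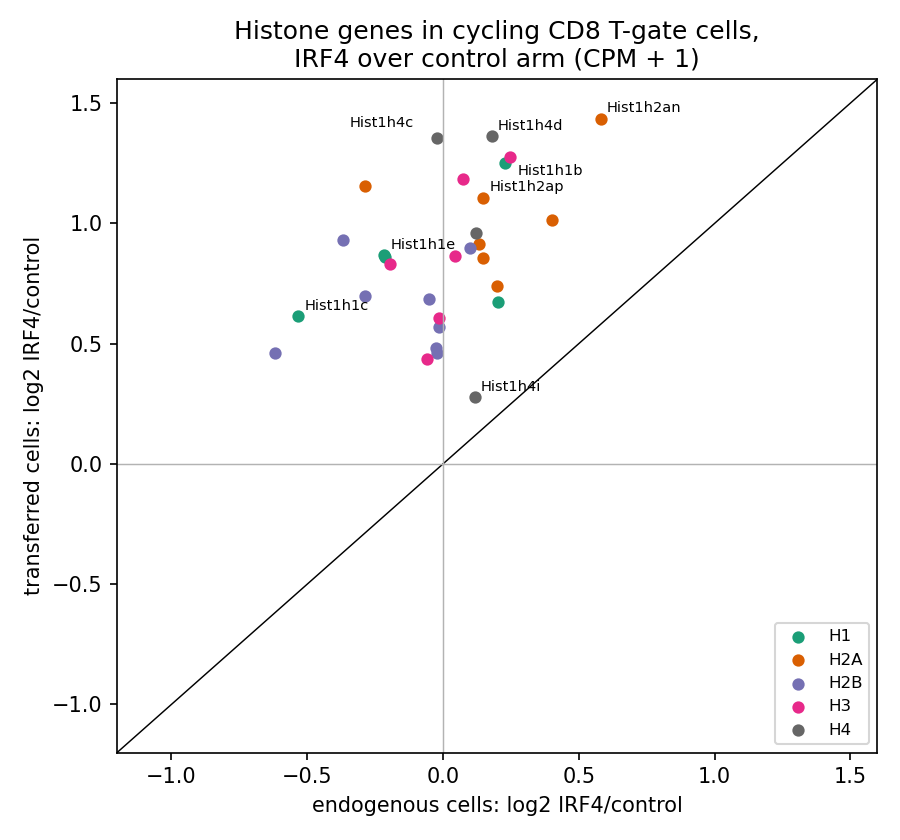
Log2 IRF4 over control ratio (CPM + 1) of the 30 histone genes measured in both comparisons, in endogenous (x axis) and transferred (y axis) cycling CD8 T-gate cells, coloured by class, with the line of equality. The points lie above the line, Hist1h4i nearest to it, and 6 of the 30 genes were under 10 CPM in transferred control cells.

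The levels of S and G2/M marker genes differed between the transferred libraries, and the histone level moved with them. Cycling cells were divided by the summed level of 20 S-phase genes, such as Pcna and Mcm2, and of 16 G2/M genes, such as Ccnb1 and Plk1, at the medians over all 1886 cycling cells, 27.5 and 10.1 UMIs per 10000. In the transferred control library, 282 of 722 cells (39.1%) were below both medians, against 35 of 194 in transferred IRF4, 95 of 809 (11.7%) in endogenous IRF4 and 38 of 161 (23.6%) in endogenous control cells. Cells low in both had median depths of 32050, 47531, 18646 and 23179 UMIs. The cycling gate counts raw UMIs, so deep cells with low marker levels can pass it. With the gate on thinned cells, 161, 475, 739 and 132 cells were cycling. The part of the gate in the 39.1% was not tested. Cells low in both had 590, 679, 581 and 653 histone CPM, cells high in both 4322, 2662, 4182 and 4506. Within a range the transferred IRF4 over control ratio was 1.62 (1.59 to 1.66) for cells high in both, 1.58 (1.54 to 1.62) for G2/M alone, 1.23 (1.18 to 1.27) for S alone and 0.868 (0.803 to 0.937) for cells low in both. In the endogenous libraries the 4 ratios lay between 0.889 and 0.931. The ratio of 2.01 over all cycling cells was thus larger than any within a range, and the part of the remaining differences in stage was not tested. The ranges are stretches of a scale and not cell types: 216 cells lay within 10% of the S median and 95 within 10% of the G2/M median.

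Histone levels were higher where G2/M genes were high than where S genes alone were high. Cells with S genes high and G2/M genes low had 1464, 1192, 1601 and 1730 CPM, and cells with G2/M genes high and S genes low 3557, 2251, 3384 and 3637 CPM. The second was higher in every library. DNA content was not measured, so the ranges do not place histone mRNA at a point of the cycle. Hist1h2ap went from 279, 211, 212 and 258 CPM in the first range to 857, 524, 488 and 509 CPM in the second. Hist1h1b went from 189, 153, 368 and 387 to 459, 247, 622 and 617 CPM. Slbp, whose product binds the histone stem-loop, went down over the same ranges, from 256, 218, 374 and 282 to 135, 126, 169 and 133 CPM.

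**Figure D4:**
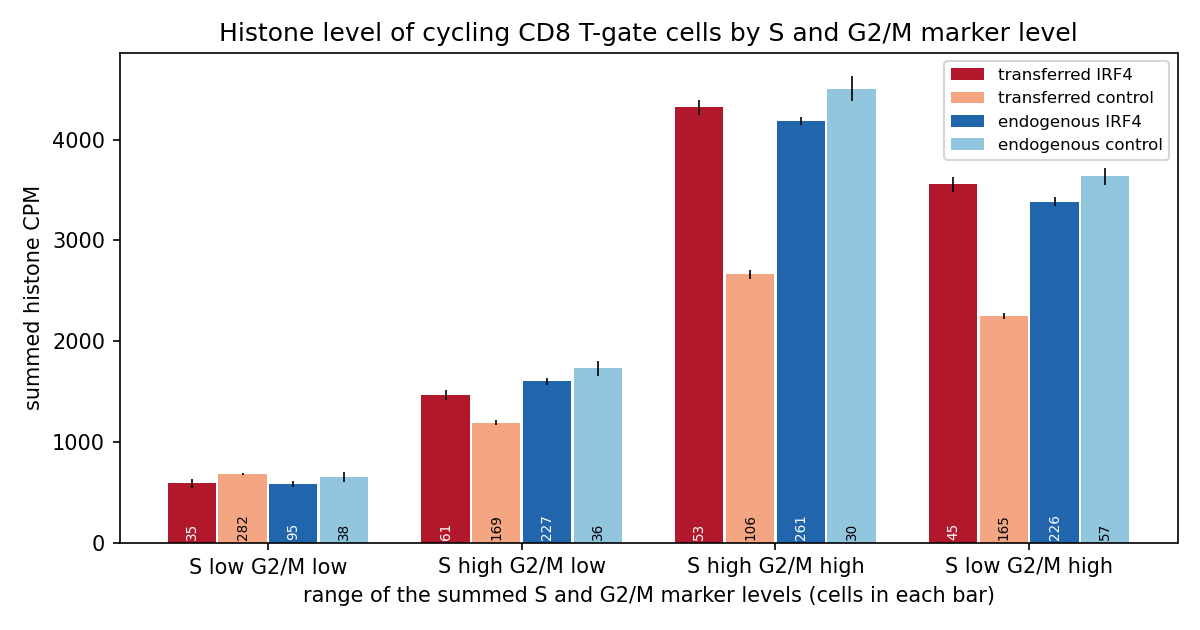
Summed histone CPM (bars, with 95% Poisson intervals for counting error) of cycling CD8 T-gate cells, by range of the S and G2/M marker levels and by library, with the number of cells inside each bar. The transferred control bar is the lowest of its range except in cells low in both, and bars with high G2/M genes exceed those with high S genes alone.

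The make-up by class differed between transferred and endogenous cells by more than between arms for H1, H2A and H4. H1 genes held 28.0% (27.5 to 28.6) and 27.8% (27.5 to 28.2) of the histone UMIs of cycling cells in the transferred libraries, and 36.8% (Clopper-Pearson, as for the others) and 39.5% in the endogenous ones. H2A held 46.3%, 44.0%, 40.6% and 36.9%, and H4 10.4%, 10.4%, 7.93% and 7.51%. Hist1h1b led the members in both endogenous libraries and Hist1h2ap in both transferred ones. In non-cycling cells H1 held 35.8%, 36.1%, 39.0% and 48.1%, and H4 31.4%, 25.1%, 22.0% and 18.3%. With 1 library of each kind the make-up was not tested.

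Among non-cycling cells the histone level of the labelled arms was 341 against 265 CPM in transferred cells, 1.29-fold (1.15 to 1.44), and 276 against 317 CPM in endogenous cells, 0.871-fold (0.797 to 0.951). Of 11 measured members 3 were higher and 1 lower in transferred IRF4 cells, against 6.72% and 8.96% of all genes. The 3 were Hist1h4d, with 29.8 against 11.8 CPM, Hist1h4c and Hist2h2ac, and the lower one was Hist1h1d with 3 against 67 UMIs. Hist1h4c and Hist2h2ac passed 10 CPM through the IRF4 arm alone, and Hist1h1d through the control arm alone. Of all 63 members in transferred non-cycling cells, 35 had a positive and 24 a negative log2 ratio. In the endogenous comparison 0 of 10 were higher and 2 lower, Hist1h1c and Hist2h2ac, against 3.50% and 3.75% of all genes. Hist2h2ac, with 8.77 against 18.9 CPM, passed 10 CPM through the control arm alone. Of all 63 members there, 34 had a positive and 24 a negative log2 ratio. Over all CD8 T-gate cells, cycling or not, the summed ratio was 2.06 (2.03 to 2.09) in transferred cells, where 23 of 28 members were higher and 0 lower against 3.54% and 2.96% of genes. It was 1.39 (1.37 to 1.41) in endogenous cells, where 7 of 29 were higher and 0 lower against 3.04% and 6.01%. The share of cycling cells, 40.5% against 23.1% in the endogenous pair, enters that last ratio. In both pairs some of these members, such as Hist1h3b, passed 10 CPM through the IRF4 arm alone. Of all 63 members, 61 log2 ratios were positive in transferred and 56 in endogenous cells.

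Markers of other cells had the following levels in the CD8 T gate. The 2 hemoglobin genes had 1300 CPM in cycling and 2784 CPM in non-cycling CD8 T-gate cells of the endogenous control library, and between 0.216 and 36.3 CPM in the others. The 5 myeloid genes, with none at 0, had 44.5, 140, 61.9 and 141 CPM in cycling cells. The 3 neutrophil genes had 67.8, 4.44, 17.2 and 2.79 CPM there, and in non-cycling transferred cells all 3 were at 0. The 4 genes of the dendritic list, of which T cells also express Ccr7, had 237, 183, 17.998 and 86.5 CPM in cycling cells. The 3 B cell genes were at 0 in the transferred IRF4 cells and reached at most 0.744 CPM in cycling cells, and the 4 melanoma genes at most 3.40 CPM. The part of these transcripts in the histone ratios was not tested.

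The endogenous libraries also allowed a comparison of non-cycling cells of other gates. CD4 T, NK, B and myeloid non-cycling cells of the endogenous IRF4 library had 332, 490, 613 and 348 histone CPM, against 276 in CD8 T cells. In the endogenous control library they had 479, 697, 794 and 370 CPM, against 317. Of these 5 gates, B cells had the highest level and CD8 T cells the lowest in both libraries. Every class was higher in control B cells than in control CD8 T cells. H1 had 336 against 153 CPM, H2A 148 against 58.4 and H2B 107 against 36.3. H3 had 43.6 against 12.0 CPM and H4 159 against 58.0. Of 21 members with at least 20 UMIs in these 2 gates together, 19 were higher in B cells. The share of all genes higher in B cells was not counted, so these 19 have no background. Members could also pass that minimum mainly through their B cell UMIs. As single genes in control B cells, Hist1h1c had 140 CPM, Hist1h1e 127, Hist1h4i 66.9 and Hist3h2a 47.2. In CD8 T cells these had 72.6, 56.4, 17.0 and 13.9 CPM. B and NK cells were also shallow, with a median of 3590 and 4903 UMIs against 7212.5, and CPM is a share of a smaller total there. Of cells in other gates, cycling myeloid cells of the endogenous control library were the one set with at least 50 cells: 137 cells had 943 CPM (916 to 970), against 370 in their non-cycling counterparts and 2808 in cycling CD8 T cells.

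**Figure D5:**
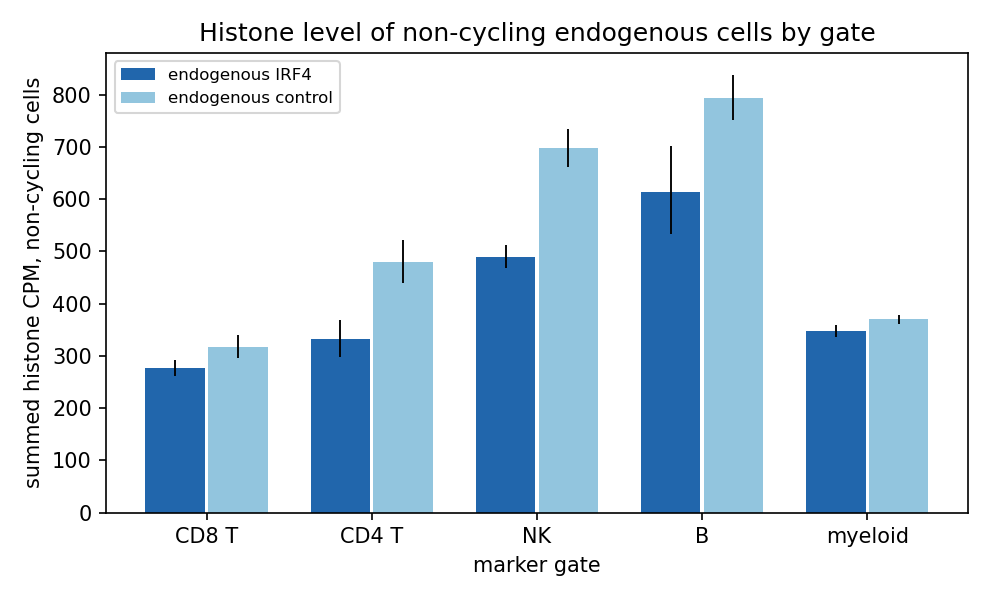
Summed histone CPM (bars, with 95% Poisson intervals for counting error) of non-cycling cells by marker gate in the endogenous IRF4 and endogenous control libraries. The bars run from 276 and 317 CPM in CD8 T cells to 613 and 794 CPM in B cells.

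Variant histones, whose genes lie outside the clusters, were counted beside the members. Of 11 variant genes 9 were measured and 4, 4, 5 and 5 were higher in cycling cells, with none lower, where 22.8%, 11.2%, 24.6% and 28.3% of all measured genes were higher. In transferred control cells H2afz, an H2A variant of active promoters, went from 525 to 1451 CPM and H2afx, the variant phosphorylated at DNA breaks, from 48.1 to 136 CPM. The replacement H3.3 genes H3f3a and H3f3b stood at 1178 and 1357 CPM in non-cycling and 1252 and 1321 CPM in cycling cells. Between the arms in transferred cycling cells 1 of 9 was higher, where 3.05% of all measured genes were: H1f0, the linker histone of resting cells, with 31.6 against 17.4 CPM, a ratio of 1.82 (1.58 to 2.08). H3f3a at 0.962 (0.942 to 0.982) and H2afz at 1.04 (1.02 to 1.06) were near 1 where the clustered genes had 2.01.

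The genes that make and load histone mRNA and protein were listed as well. The list for histone mRNA processing had 17 genes, among them Npat and E2f1, which act in transcription. Of these 17 genes 9, 5, 9 and 10 were higher in cycling cells, among 16, 15, 15 and 15 measured. The shares of all measured genes that were higher there, 22.8%, 11.2%, 24.6% and 28.3%, are the background for these counts and for those of the chaperones. The list of chaperones, which hand histones to DNA, had 18 genes and also held the acetyltransferase Hat1 and the importin Ipo4. Of these 18 genes 12, 9, 11 and 12 were higher in cycling cells and 1, 0, 1 and 1 lower. The lower one was Daxx, an H3.3 chaperone, at 0.598, 0.584 and 0.571 of its non-cycling level. Chaf1a, a subunit of the replication-coupled assembly factor CAF-1, went from 2.91 to 34.5 CPM and Asf1b, an H3 and H4 chaperone of dividing cells, from 4.96 to 43.5 CPM in transferred control cells. Npat, the coactivator of histone transcription, had 23.96 CPM in non-cycling and 31.9 CPM in cycling cells there, a ratio of 1.33 (1.12 to 1.59). Between the arms in transferred cycling cells 0 of 16 measured genes of the processing list were higher. Of the chaperone list 1 of 18 was higher, Asf1b with 74.0 against 43.5 CPM. None of either list was lower, where 3.05% of all measured genes were higher and 3.74% lower. Slbp had 221 against 159 CPM, a ratio of 1.40 (1.33 to 1.47), Nasp, an H3 and H4 chaperone, 1.31 (1.25 to 1.38) and Npat 1.07 (0.941 to 1.21). In endogenous cycling cells Slbp had 299 against 195 CPM, 1.54-fold (1.44 to 1.64), with the histone sum at 1.07. Of the cycle lists, 4 of 20 S genes and 11 of 16 G2/M genes were higher in transferred IRF4 cycling cells, with median log2 ratios of 0.46 and 0.69, beside the same 3.05% of all measured genes. In endogenous cells 0 of 20 and 0 of 16 were, where 2.09% of all measured genes were higher, with medians of 0.36 and 0.14.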

How the data were processed

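Tumour-derived single-cell 3′ libraries (10x Chromium v3) of 4 groups were analysed from the deposited counts, whole numbers of UMIs per gene and barcode. The authors made them with Cell Ranger 3.0.2 and STAR 2.6 on mm10, per the submitters' processing notes, and no source used here names the gene annotation. The protocol in the labels speaks of a nucleus suspension in 1 place and of cells elsewhere.

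The members, lists and comparisons were chosen with earlier results of these data known. Cells were kept at 1000 UMIs, 500 genes and at most 10% mitochondrial UMIs, then gated by marker UMIs. No doublet caller was run. The CD8 T gate allowed at most 1 B cell UMI and 10 myeloid UMIs per 10000. UMIs were summed per library and gate and divided by the sum of all genes (CPM). Intervals (95%) were exact: Poisson for levels, conditional binomial for ratios, Clopper-Pearson for shares. With 1 library per group no test was made, and calls were 1.5-fold ratios with a pseudocount of 1 CPM at 10 CPM or more in either arm. A ratio against 0 UMIs used a floor of 3 counts per library. The calling step was tested on simulated data. Median depths of kept cells were 16370, 19963, 8437 and 10521 UMIs.

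Named members were the 10 with the most UMIs, the H1 genes, the Hist2 to Hist4 genes measured in transferred control cells, and the 5 highest and 5 lowest ratios by cycling (transferred control) and by arm (transferred cycling), at 20 UMIs or more. Transcripts came from GENCODE vM21, promoters from RefSeq GRCm38.p6. Python 3.11.15, numpy 2.4.6, scipy 1.17.1, pandas 2.3.3 and matplotlib 3.10.9 were used. Alternatives varied the cell filter, gate, pseudocount, minimum level and averaging.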

Additional observations from a re-analysis of the deposited data

Results flagged for a closer look

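In non-cycling cells Hist2h2ac had a log2 IRF4 over control ratio of 0.76 in transferred and -1.03 in endogenous CD8 T cells, opposite directions in single libraries, and the difference was not tested. The transferred value rests on 15 and 46 UMIs and its ratio interval of 0.921 to 3.24 spans 1. The endogenous value rests on 41 and 49 UMIs, with a ratio interval of 0.298 to 0.716.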

How the results depend on the processing

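No result past 1.5-fold changed direction, while the endogenous cycling ratio, which was not past it, changed sign under 1 setting. The values below are log2 ratios of the summed histone level or counts of members. With no minimum level the members called higher in cycling cells went from 32, 22, 31 and 31 to 52, 45, 51 and 51. The IRF4 over control value over all transferred CD8 T cells, 1.04, was 0.95 without the 6% of cells with the most UMIs, 0.95 as a mean over cells, 1.07 over all kept cells and 0.90 without the 10 cells with the most histone UMIs. In transferred cycling cells, 1.01 became 0.95, 0.92, 1.16 and 0.89 under the same 4 settings, 0.74 with the gate on thinned cells and 0.90 with a stricter gate. The 27 members called there became 14 with a pseudocount of 10 CPM. In transferred non-cycling cells 0.36 became 0.15 with the thinned gate and 0.13 over all kept cells. Over all endogenous CD8 T cells 0.47 became 0.38 with a mitochondrial limit of 5%, 0.54 without the 6%, 0.68 as a mean over cells, 0.84 over all kept cells and 0.74 without the 10 cells. In endogenous cycling cells 0.10 became 0.066 with the limit of 5%, -0.028 with the thinned gate, 0.041 with the stricter gate, 0.18 as a mean over cells, 0.63 over all kept cells, 0.012 in cells of 20000 to 60000 UMIs and 0.37 without the 10 cells. The 1 member called higher there became 2 with no cell filter, with the limit of 5% and without the 6%, 0 with the pseudocount of 10, 3 with no minimum level, 17 over all kept cells and 4 without the 10 cells. In endogenous non-cycling cells -0.20 became -0.066 without the 10 cells. The causes were not tested. The settings by depth range and without the 10 cells were chosen after the data were seen. For the 21 named members there were 231 alternatives of the arm ratios and 231 of the cycling ratios. Inside the interval of the main value stayed 154 of the arm ratios and 176 of the cycling ratios, while 77 and 55 left it. No member past 1.5-fold changed sign, while Hist1h1c, not past it at 0.34 in transferred control cells, was at -0.27 over all kept cells. No paired analysis was possible because each group has 1 library. All intervals cover counting error only, and non-cycling members with few UMIs set the limit of precision.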
